A study of Mus musculus with 21 samples.

Results

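The transcripts of 10 transcription factors and cofactors that act with GATA factors in blood cells were followed across mouse bone marrow: Klf1, Gfi1b, Zfpm1, Lmo2, Ldb1, Lyl1, Nfe2, Sox6, Bcl11a and Myb. They were chosen by name and found through the RefSeq accessions of the probes, 10 of 10 of them among 18217 gene symbols with a probe on the arrays. Where several probes carried a gene, the brightest was used, and all 10 genes passed the filter on dim probes. Total RNA was measured with 1 colour per array in 7 sorted fractions of C57BL/6 marrow, 3 arrays each and 21 in all. The labels name the strain and mention no further allele, treatment, age, sex or pooling of animals. KLS was sorted as lineage-negative cells with Kit and Sca1 and holds the stem and multipotent cells. PreMegE, the bipotent precursor of megakaryocytes and red cells, was sorted with CD150, CFUe stands for the erythroid colony-forming unit, and Ter119 cells carried CD71 and Ter119. On the other side PreGM precedes GMP, the granulocyte and macrophage progenitor sorted with Fc gamma receptors, and the Mac1Gr1 fraction was positive for both antigens in its name. The lineage panel that was excluded from the 5 immature fractions comprised B220, CD3, CD4, CD8, CD41, Mac1, Gr1 and Ter119.

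GATA1 drives erythroid genes together with a small set of partners. FOG1, the product of Zfpm1, binds its zinc finger and recruits repressors, KLF1 acts beside it at globin and membrane genes, and GFI1B is a repressor that GATA1 switches on. LDB1 and LMO2 do not bind DNA themselves and bridge GATA1 to a basic helix-loop-helix protein, which can be TAL1 or its relative LYL1. NF-E2 p45, the product of Nfe2, pairs with small MAF proteins at globin enhancers and is needed for platelet release. SOX6 and BCL11A silence embryonic and fetal globins, and MYB keeps progenitors dividing.

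A level is the log2 intensity of a probe minus the 75th percentile of its array, so that a level of 0 lies at that percentile. Levels of different probes are not on a common scale and are not compared between genes. A change was called, and is described as a rise or a fall, where limma gave a Benjamini-Hochberg adjusted p under 0.05 over 29526 probes and the difference was at least 2-fold. The labels do not say whether the 3 samples of a fraction came from separate animals, so p values measure the spread between these samples. In bulk RNA of a sorted fraction, fewer cells that express a gene and less RNA in each cell cannot be told apart.

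Each of the 21 arrays correlated best with an array of its own fraction, and between 56.5% and 77.4% of probes were well above background. The labels and the transcripts of the sorting antigens differed in places. PreMegE, CFUe, PreGM and GMP are all labelled as positive for Sca1, whose transcript Ly6a stood at a level of 2.57 in KLS, 2.10 in GMP, -0.31 in PreGM and -3.14 in PreMegE and was well above background on 1 of the 3 CFUe arrays. CFUe and PreGM carry an identical label phenotype, which excludes CD150, CD105 and Fc gamma receptors. Eng, which encodes CD105, was well above background in both, with levels of 2.47 in CFUe and 1.68 in PreGM. The Ter119 fraction had the highest erythroid marker level (mean over 10 genes, 5.35 to 5.67 by array) but also held transcripts of other lineages. All 12 granulocytic markers were well above background on all 3 of its arrays (list mean 7.33 to 7.38, against 8.14 to 8.28 in Mac1Gr1 and -3.79 to -1.87 in CFUe), as were all 9 B cell markers (2.16 to 2.57). Megakaryocytic markers had their highest list mean in PreMegE (1.52 to 1.69 over 9 genes). Among immature fractions, CFUe replicate 3 and PreGM replicate 3 stood above their replicates in granulocytic transcripts, with a level of -0.84 for Ltf, the lactoferrin gene, in CFUe replicate 3 (the others had -3.99 and -3.24) and of -0.12 in PreGM replicate 3 (-3.79 and -3.75).

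The promoters of Klf1, Gfi1b and Zfpm1 are shown because these 3 genes had close profiles across the arrays (r of 0.91 to 0.96 between them). RefSeq windows on GRCm38.p6, from 250 bases before to 50 bases after each annotated start, were found for 8 of the 10 factors (15 windows in all). The 250 bases before the start are printed 5′ to 3′ on the strand of the gene: chr8:84901732-84901981 on the plus strand for Klf1, chr2:28621983-28622232 on the minus strand for Gfi1b and chr8:122281891-122282140 on the plus strand for Zfpm1. Capitals mark letters of a GATA motif, which was searched on both strands with the letters AGATAA or TGATAA, and with AGATAG or else with TGATAG.
Klf1: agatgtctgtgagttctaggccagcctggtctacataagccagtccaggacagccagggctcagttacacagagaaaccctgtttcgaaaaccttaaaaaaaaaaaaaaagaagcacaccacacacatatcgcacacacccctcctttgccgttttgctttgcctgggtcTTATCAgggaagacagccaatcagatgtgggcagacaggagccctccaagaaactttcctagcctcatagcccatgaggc
Gfi1b: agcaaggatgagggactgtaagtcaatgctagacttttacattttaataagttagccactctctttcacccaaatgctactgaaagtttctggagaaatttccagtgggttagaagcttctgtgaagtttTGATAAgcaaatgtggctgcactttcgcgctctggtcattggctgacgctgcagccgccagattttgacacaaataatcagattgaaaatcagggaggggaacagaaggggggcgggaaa
Zfpm1: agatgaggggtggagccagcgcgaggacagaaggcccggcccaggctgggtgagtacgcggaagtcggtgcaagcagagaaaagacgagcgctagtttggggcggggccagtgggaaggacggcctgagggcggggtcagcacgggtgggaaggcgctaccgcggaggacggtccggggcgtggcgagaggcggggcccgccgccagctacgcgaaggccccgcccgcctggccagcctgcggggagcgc
The Klf1 window held a single GATA match, TGATAA on the opposite strand (TTATCA as printed), at position -80 from the start. The Gfi1b window held the same letters on the printed strand, at position -120, and the Zfpm1 window held none. Among the 15 windows, 5 windows of 4 genes (Klf1, Gfi1b, Ldb1 and Sox6) held GATA letters, while 29.8% of all 32851 promoter windows did. Letters of the KLF motif, CCNCNCCC on both strands with overlapping matches counted separately, were absent from the Klf1 window, occurred 2 times in that of Gfi1b and 4 times in that of Zfpm1, and were present in 10 of the 15 windows against 49.5% of all windows. The NF-E2 and AP-1 letters TGANTCA, present in 7.8% of all windows, were in none of the 15. E box letters, CANNTG, were in 72.3% of all windows. A match describes the letters of a window and not a bound site.

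**Figure D1:**
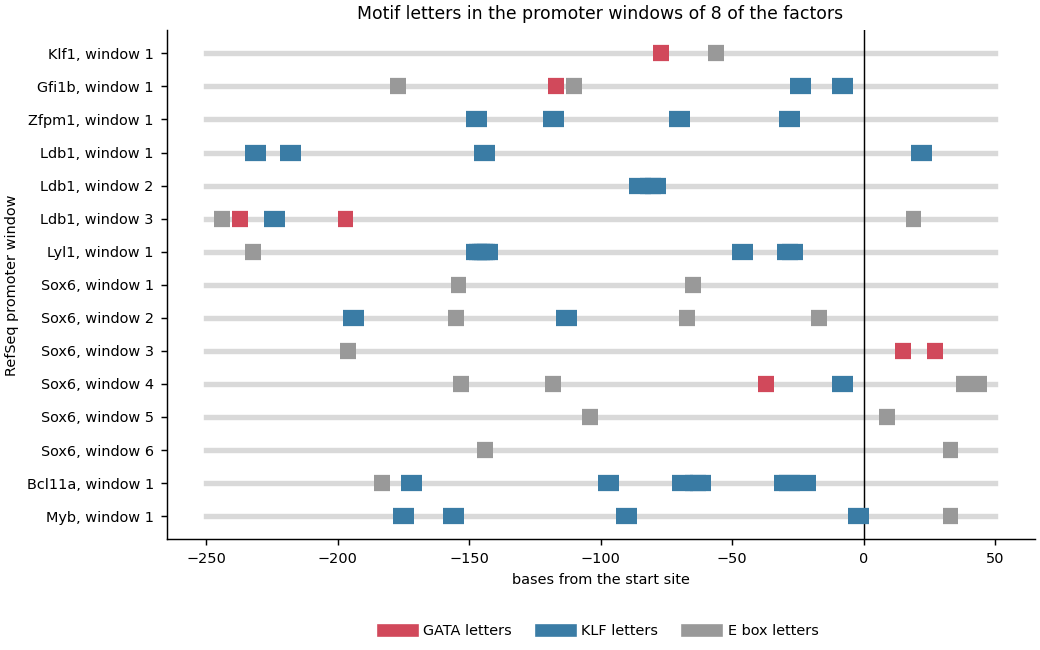
Positions of GATA, KLF and E box letters (coloured blocks) along the 15 RefSeq promoter windows of 8 of the factors, as bases from the annotated start site (black line), 1 row per window. GATA letters fall in 5 of the rows and KLF letters in 10, and overlapping KLF matches merge into wider blocks.

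Klf1, the erythroid Krüppel-like factor, differed more between CFUe and GMP than any other of the 10 factors. Its level was -3.21, -2.76 and -1.28 on the KLS arrays, 2.07, 2.32 and 2.23 in PreMegE, 3.73, 3.97 and 4.03 in CFUe and 1.91, 2.55 and 2.74 in Ter119. Along the other line it was -2.17, -2.07 and -1.41 in PreGM, -4.67, -4.71 and -3.35 in GMP and -4.14, -4.0 and -3.85 in Mac1Gr1. The 9 arrays of the erythroid fractions all lay above the 12 others. Klf1 rose by 4.62 ± 0.41 on the log2 scale (SE) from KLS to PreMegE (24.7-fold, adjusted p = 2.11e-07). A further rise of 1.70 ± 0.41 separated PreMegE and CFUe (adjusted p = 0.00242), and Klf1 fell by 1.51 ± 0.41 from CFUe to Ter119 (adjusted p = 0.00328). Between PreGM and GMP it fell by 2.36 ± 0.41 (adjusted p = 0.00042). CFUe exceeded GMP by 8.15 ± 0.41 (285-fold, adjusted p = 3.84e-11). In the order of levels, Ter119 and PreMegE did not differ beyond their spread (0.19, adjusted p = 0.689), nor did PreGM and KLS (0.53, adjusted p = 0.391) or Mac1Gr1 and GMP (0.25, adjusted p = 0.6). KLS replicate 3 stood above the other KLS arrays. Without it the rise to PreMegE was 5.19, the fall from KLS to GMP was -1.26 in place of -1.83, and the PreGM level was higher than that of KLS by 1.1 (adjusted p = 0.0321).

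Gfi1b, like Klf1, was highest in CFUe. Levels were 1.76, 2.05 and 2.36 in KLS, 4.40, 4.54 and 4.39 in PreMegE, 5.47, 5.68 and 5.83 in CFUe and 2.43, 2.90 and 3.15 in Ter119. PreGM stood at 1.88, 1.92 and 2.11, within the spread of KLS (-0.09, adjusted p = 0.776), whereas GMP stood at -1.99, -2.14 and -1.92 and Mac1Gr1 at -1.63, -1.66 and -1.53. Gfi1b rose by 2.39 ± 0.17 from KLS to PreMegE (adjusted p = 1.47e-08) and by a further 1.22 ± 0.17 in CFUe (adjusted p = 1.38e-05), then fell by 2.83 ± 0.17 to Ter119 (adjusted p = 1.05e-10). The fall from PreGM to GMP was -3.99 ± 0.17 (15.9-fold, adjusted p = 1.77e-10), and the levels of the pair did not overlap. The step from PreMegE to CFUe was under 2-fold with quantile scaling of the arrays, in the deposited series table (0.71 each) and with scaling to the spike-in control RNAs (0.7).

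Zfpm1 reached its upper level already in PreMegE. It stood at 4.14, 4.06 and 4.58 in KLS, 6.37, 6.53 and 6.18 in PreMegE, 5.96, 6.17 and 5.96 in CFUe and 5.14, 5.84 and 5.68 in Ter119, then at 3.71, 3.68 and 3.81 in PreGM, 1.32, 1.26 and 0.83 in GMP and 0.58, 1.05 and 1.17 in Mac1Gr1. PreMegE, CFUe and Ter119 lay above all other fractions. Zfpm1 rose from KLS to PreMegE by 2.10 ± 0.20 (adjusted p = 4.39e-07) and the fall from PreGM to GMP was -2.60 ± 0.20 (adjusted p = 7.58e-08). From PreMegE to CFUe the difference was -0.33 (adjusted p = 0.187), and from CFUe to Ter119 -0.48 (adjusted p = 0.0388), under 2-fold. Across the 21 arrays Zfpm1 correlated with Gfi1b at r = 0.96 and with Klf1 at r = 0.91, and Klf1 with Gfi1b at r = 0.91. These values describe points that share 7 fractions and the scaling of each array.

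**Figure D2:**
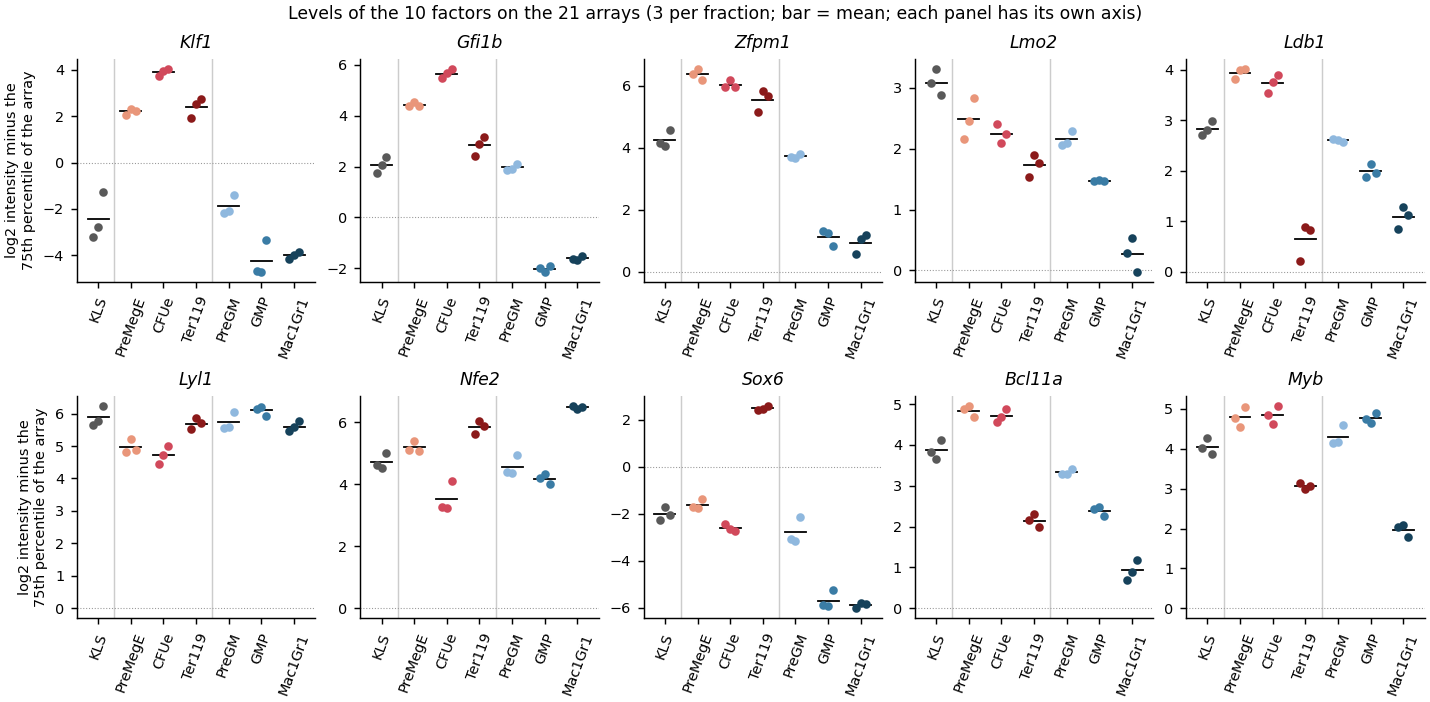
Level (log2 intensity minus the 75th percentile of the array) of each of the 10 factors on the 21 arrays, 3 points per fraction with a bar at their mean, and an axis of its own for each gene. Klf1, Gfi1b and Zfpm1 were higher in PreMegE, CFUe and Ter119 than in any myeloid fraction, Sox6 stood apart in Ter119 (2.40 to 2.60), and Nfe2 was highest in Mac1Gr1 and Ter119.

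Ldb1, the scaffold of the GATA1 complex, was called higher in PreMegE and lower in Ter119. Its level was 2.71, 2.80 and 2.99 in KLS, 3.81, 4.0 and 4.01 in PreMegE, 3.54, 3.76 and 3.89 in CFUe and 0.21, 0.88 and 0.82 in Ter119. PreGM stood at 2.57 to 2.62, GMP at 1.88 to 2.13 and Mac1Gr1 at 0.84 to 1.28. PreMegE and CFUe stood above KLS, and Ter119 was the lowest fraction. The rise from KLS to PreMegE was 1.11 ± 0.16 (adjusted p = 5.79e-05), which was under 2-fold with quantile scaling (0.99), in the series table (0.93) and with spike-in scaling (0.65). Between CFUe and Ter119 it fell by 3.09 ± 0.16 (8.54-fold, adjusted p = 1.88e-11), and its second probe fell by 2.89. Ldb1 levels in Ter119 and Mac1Gr1 overlapped (-0.44, adjusted p = 0.025).

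Lmo2, the LIM-only bridge of the complex, was highest in KLS and not in an erythroid fraction. Levels were 3.07, 3.30 and 2.88 in KLS, 2.16, 2.45 and 2.82 in PreMegE, 2.40, 2.09 and 2.24 in CFUe, 1.53, 1.90 and 1.77 in Ter119, 2.05, 2.09 and 2.29 in PreGM, 1.47, 1.49 and 1.46 in GMP and 0.28, 0.53 and -0.02 in Mac1Gr1. No erythroid step of Lmo2 was called under the main scaling, where the largest was -0.60 from KLS to PreMegE (adjusted p = 0.0146). Spike-in scaling called it lower at that step (-1.07) and from CFUe to Ter119 (-1.90), and the difference of CFUe from KLS, -0.84, was called with quantile scaling and in the authors' series values (-1.34 in both). It fell by 1.21 ± 0.17 from GMP to Mac1Gr1 (adjusted p = 6.19e-06), and GMP lay below KLS by -1.61 ± 0.17 (adjusted p = 9.12e-07). PreMegE, CFUe and PreGM were neighbours in the order, with differences of 0.23 (adjusted p = 0.278) and 0.10 (adjusted p = 0.653).

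Lyl1, the TAL1 relative, was lowest in PreMegE and CFUe. It stood at 5.66, 5.78 and 6.24 in KLS, 4.81, 5.21 and 4.87 in PreMegE, 4.45, 4.71 and 5.01 in CFUe and 5.51, 5.85 and 5.70 in Ter119, with 5.57 to 6.06 in PreGM, 5.94 to 6.21 in GMP and 5.45 to 5.76 in Mac1Gr1. The 6 arrays of PreMegE and CFUe lay below the 15 others. CFUe was lower than GMP by -1.38 ± 0.19 (adjusted p = 9.34e-06) and lower than KLS by -1.17 ± 0.19 (adjusted p = 3.8e-05). The latter was under 2-fold with the slide as a block (-0.94), within the slide that held both fractions (-0.64) and without KLS replicate 3 (-0.99). That slide held CFUe replicate 3, the CFUe array highest in Lyl1, without which the difference was -1.31. GMP, KLS, PreGM, Ter119 and Mac1Gr1 followed each other in the order with differences of 0.05 to 0.21, none past the threshold. The Ter119 fraction also held granulocytic and B cell transcripts, and their part in its Lyl1 level was not tested.

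Of 10 other proteins known to sit in or beside this complex, 9 had a probe. From KLS to PreMegE, 2 of the 9 rose, Gata1 by 4.45 and Gata2 by 2.46, and none fell, where 3.55% of all probes were called higher (median of the 9, 0.36, and of all probes 0.13). Between CFUe and Ter119, 6 of the 9 fell and none rose (median -1.69, all probes 0.05), at a step where 27.9% of all probes fell. Those 6 included the LDB1-binding proteins Ssbp2 (-2.09), Ssbp3 (-1.69) and Ssbp4 (-1.71), beside Gata1 (-2.33), Gata2 (-2.14) and the E protein gene Tcf12 (-1.11). From GMP to Mac1Gr1, 7 of the 9 fell, beside 27.6% of all probes. Ssbp3 rose from PreMegE to CFUe by 1.0, a call lost with quantile and spike-in scaling, while Gata2 (-2.96), Runx1 (-1.55) and Cbfa2t3 (-1.29), which encodes the corepressor ETO2, fell. Of the 9 measured subunits of the corepressors that GFI1B and FOG1 recruit, none was called by limma from KLS to PreMegE (4 had an unadjusted p under 0.05), from PreMegE to CFUe (7) or between PreMegE and PreGM (2). Of all probes, 3.55% rose and 8.87% fell from KLS to PreMegE, and 10% rose and 14.7% fell from PreMegE to CFUe. In PreMegE against PreGM, 5.79% were higher and 6.25% lower. With 9 genes, the absence of calls does not show that they were unchanged. From KLS to CFUe, 2 of the 9 rose, beside 17.2% of all probes. With quantile scaling 1 rose, and with spike-in scaling none did, beside 770 of all probes. In Ter119 against CFUe, 7 of the 9 fell (median -1.51) beside 27.9% of all probes, and 4 did with quantile scaling. The 7 included Kdm1a, the histone demethylase LSD1 (-1.58), Rcor1 (-1.47) and Mta1 (-2.92). From GMP to Mac1Gr1, 5 of the 9 fell beside 27.6% of all probes. Spike-in scaling called all 9 of them and all 9 complex partners lower at both last steps. Under it, 16558 of the 29526 probes tested were called lower in Ter119 against CFUe and 20656 in Mac1Gr1 against GMP.

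Nfe2 had its highest levels in both mature fractions and its lowest in CFUe. It stood at 4.61, 4.53 and 5.02 in KLS, 5.09, 5.41 and 5.06 in PreMegE, 3.26, 3.25 and 4.10 in CFUe and 5.61, 6.05 and 5.88 in Ter119. PreGM had 4.41, 4.36 and 4.93, GMP 4.21, 4.33 and 4.0 and Mac1Gr1 6.53, 6.42 and 6.50. Mac1Gr1 and Ter119 were the 2 highest fractions, without overlap between them (0.64, adjusted p = 0.0162). Nfe2 fell by 1.65 ± 0.22 between PreMegE and CFUe (adjusted p = 7.26e-06), rose by 2.31 ± 0.22 from CFUe to Ter119 (adjusted p = 3.64e-08) and rose by 2.30 ± 0.22 from GMP to Mac1Gr1 (adjusted p = 3.87e-08). CFUe replicate 3, the array with more granulocytic transcripts, had the highest Nfe2 level of CFUe, and without it the fall from PreMegE was -1.93. The granulocytic list was high in both fractions in which Nfe2 was high (7.33 to 7.38 in Ter119 and 8.14 to 8.28 in Mac1Gr1), and its part in the Ter119 level of Nfe2 was not tested. With spike-in scaling the rises to Ter119 and Mac1Gr1 were 0.93 and 0.27, under 2-fold.

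Of the 6 measured small MAF and CNC genes, which encode the dimer partners and relatives of NF-E2, 4 rose from GMP to Mac1Gr1 and 1 fell (median 1.3, all probes 0.17), where 29.1% of all probes rose and 27.6% fell. With spike-in scaling none of the 6 rose there and 2 fell (median -0.73), beside 1895 and 20656 of all probes. Mafg rose by 1.92, Bach1 by 1.64, Nfe2l2 by 1.51 and Mafk by 1.1, while Maff fell by 3.62. At the last erythroid step, Mafk rose by 1.08, and Maff (-3.70) and Nfe2l2 (-1.07) fell, where 29.2% of all probes rose and 27.9% fell. Quantile scaling gave 2 rises and 1 fall. Spike-in scaling gave no rise and 3 falls, beside 4053 and 16558 of all probes. Nfe2l2, which encodes NRF2, rose from KLS to PreMegE by 1.18.

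Sox6 was high in a single fraction. Its level was 2.40, 2.46 and 2.60 in Ter119 and -2.25, -1.71 and -2.05 in KLS, -1.73, -1.76 and -1.38 in PreMegE, -2.43, -2.63 and -2.75 in CFUe and -3.07, -3.15 and -2.13 in PreGM. In GMP it stood at -5.91, -5.94 and -5.25, well above background on 1 of the 3 arrays, and in Mac1Gr1 at -6.03, -5.79 and -5.86, well above background on none. It rose by 5.09 ± 0.24 from CFUe to Ter119 (34.1-fold, adjusted p = 4.55e-12). Its 3 other probes rose by 4.22 to 4.49. Against Mac1Gr1 (mean -5.89) the Ter119 mean of 2.49 was at least 149-fold higher (adjusted p = 4.58e-14), a bound set by the dimmest probes well above background. Ter119 also held granulocytic transcripts (list mean 7.33 to 7.38, against 8.14 to 8.28 in Mac1Gr1) and B cell transcripts (2.16 to 2.57, against 0.08 to 0.74). The part of either in the Sox6 level of Ter119 was not tested. From PreMegE to CFUe, Sox6 changed by -0.98 (adjusted p = 0.00253), just under 2-fold. Another of its probes was called there (-1.69), and the others (-0.54 and -0.79) were not. Sox6 fell by 2.92 ± 0.24 from PreGM to GMP (adjusted p = 1.56e-07). PreMegE exceeded PreGM by 1.16 ± 0.24 (adjusted p = 0.00144), which became 0.98 without PreGM replicate 2 and 0.76 after normexp background correction, both under 2-fold. Its other probes gave 1.93, which was called, and 1.14 and 0.81, which were not.

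Bcl11a, known for silencing fetal globin and for its role in B cells, was highest in PreMegE and CFUe. It stood at 3.83, 3.66 and 4.12 in KLS, 4.89, 4.96 and 4.68 in PreMegE, 4.56, 4.68 and 4.88 in CFUe and 2.16, 2.32 and 1.98 in Ter119, and at 3.30 to 3.41 in PreGM, 2.25 to 2.49 in GMP and 0.69 to 1.19 in Mac1Gr1. Ter119 lay below CFUe by -2.55 ± 0.15 (adjusted p = 7.24e-11), and Mac1Gr1 below GMP by -1.46 ± 0.15 (adjusted p = 1.04e-07). The difference of 0.97 between PreMegE and KLS (adjusted p = 8.86e-05) was just under 2-fold, and its second probe was called at 1.1. PreMegE exceeded PreGM by 1.51 ± 0.15 (adjusted p = 7.85e-07). GMP lay below PreGM by -0.95 (adjusted p = 0.000151), just under 2-fold, and the second Bcl11a probe was called there at -1.21. Bcl11a is also expressed in B cells, whose markers were higher in Ter119 than in CFUe, and the part of those cells in its Ter119 level was not tested.

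Myb was high in every immature fraction and lower in both mature ones. Levels were 3.86 to 4.28 in KLS, 4.54 to 5.04 in PreMegE, 4.63 to 5.08 in CFUe, 4.15 to 4.59 in PreGM and 4.66 to 4.90 in GMP, against 3.15, 2.99 and 3.08 in Ter119 and 2.05, 2.09 and 1.78 in Mac1Gr1. CFUe, PreMegE and GMP were neighbours in the order and differed by 0.07 (adjusted p = 0.763) and 0.01 (adjusted p = 0.951). Myb fell by 1.78 ± 0.16 from CFUe to Ter119 (adjusted p = 2.69e-08) and by 2.80 ± 0.16 from GMP to Mac1Gr1 (adjusted p = 7.09e-11). Its second probe fell by 2.58 to Mac1Gr1, while its -0.86 from CFUe to Ter119 was not called. Myb and Nfe2 ran opposite to each other across the 21 arrays (r = -0.84).

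The 10 factors split by step as follows. From KLS to PreMegE, 4 of the 10 rose (Klf1, Gfi1b, Zfpm1 and Ldb1) and none fell, while 3.55% of all probes tested were called higher and 8.87% lower. The median change of the 10 was 0.85, against 0.13 over all probes. With quantile scaling and in the authors' series values 3 were higher and 1 lower. With spike-in scaling 3 were higher and 2 lower, beside 449 and 4058 of all probes. From PreMegE to CFUe, 2 rose (Klf1 and Gfi1b) and 1 fell (Nfe2), where 10% of probes were higher and 14.7% lower. With spike-in scaling 1 rose and 2 fell, beside 846 and 7184 of all probes, and with quantile scaling 1 rose and 1 fell. Sox6 changed by -0.98 at this step (adjusted p = 0.00253), just under 2-fold, and was called lower with spike-in scaling (-1.5). Between CFUe and Ter119, 2 rose (Sox6 and Nfe2) and 5 fell (Ldb1, Gfi1b, Bcl11a, Myb and Klf1). At that step 29.2% of probes were called higher and 27.9% lower, and spike-in scaling gave 1 and 7 (4053 and 16558 of all probes). Zfpm1, Lmo2 and Lyl1 were not called there, although quantile scaling and the authors' series values called Lyl1 higher (1.38 and 1.28), for 3 higher and 5 lower in all, and spike-in scaling called Zfpm1 (-1.86) and Lmo2 (-1.90) lower.

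On the myeloid side none of the 10 was called from KLS to PreGM in limma, where 2.11% of probes were higher and 6.51% lower while 3 factors had an adjusted p under 0.05 with no minimum fold and 4 an unadjusted p under 0.05. Quantile scaling and the authors' series values called Lmo2 lower there (-1.22 and -1.23), and spike-in scaling called 4 lower (5390 of all probes). From PreGM to GMP, 4 fell (Gfi1b, Sox6, Zfpm1 and Klf1) and none rose, with 4.01% of probes higher and 6.35% lower. With spike-in scaling 2 were higher and 4 lower, beside 13980 and 505 of all probes. Bcl11a changed by -0.95 at this step (adjusted p = 0.000151), just under 2-fold. Quantile scaling (-1.07), the authors' series values (-1.08) and the mean of its probes (-1.08) called it, for 5 lower in each. From GMP to Mac1Gr1, 1 rose (Nfe2) and 3 fell (Myb, Bcl11a and Lmo2), with 29.1% of probes higher and 27.6% lower. With spike-in scaling none rose and 9 fell, beside 1895 and 20656 of all probes. The median of all probes under it was -1.86 in place of 0.17. Measured from KLS to GMP, 6 were lower (Gfi1b, Sox6, Zfpm1, Klf1, Lmo2 and Bcl11a) and none higher, with 7.99% of probes higher and 13.7% lower. Spike-in scaling gave 1 higher and 6 lower, beside 5465 and 2799 of all probes. The Klf1 call there had an adjusted p of 0.0534 when the compared fractions were fitted alone, and Ldb1 was also lower with quantile scaling (-1.18) and in the authors' series values (-1.22), as was Nfe2 with quantile scaling (-1.01). From KLS to CFUe, 3 were higher (Klf1, Gfi1b and Zfpm1) and 2 lower (Nfe2 and Lyl1), with 17.2% of probes higher and 19.1% lower. Spike-in scaling gave 2 higher and 4 lower there, beside 770 and 11422 of all probes. With the slide as a block 4 were higher and none lower.

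Between the lines, PreMegE exceeded PreGM in 6 of the 10 (Klf1, Zfpm1, Gfi1b, Bcl11a, Ldb1 and Sox6) and was lower in none, with 5.79% of probes higher and 6.25% lower, and the 4 others differed by -0.78 (Lyl1) to 0.62 (Nfe2). Klf1 differed most, by 4.09. CFUe exceeded GMP in the same 6 and was lower in 1, Lyl1, with 12.0% of probes higher and 14.2% lower. Spike-in scaling gave 4 higher and 3 lower, beside 683 and 16935 of all probes. Gfi1b differed by 7.68 ± 0.17 (205-fold) and Zfpm1 by 4.90 ± 0.20 (29.8-fold), while Myb (0.08 and, with spike-in scaling, -1.30) had no settled direction. Ter119 exceeded Mac1Gr1 in 7 (Sox6, Klf1, Zfpm1, Gfi1b, Lmo2, Bcl11a and Myb) and was lower in none, with 22.0% of probes higher and 19.9% lower. Spike-in scaling gave 4 higher and 2 lower, beside 3026 and 11453 of all probes. These comparisons share fractions with each other and with the steps, so their counts are not independent.

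**Figure D3:**
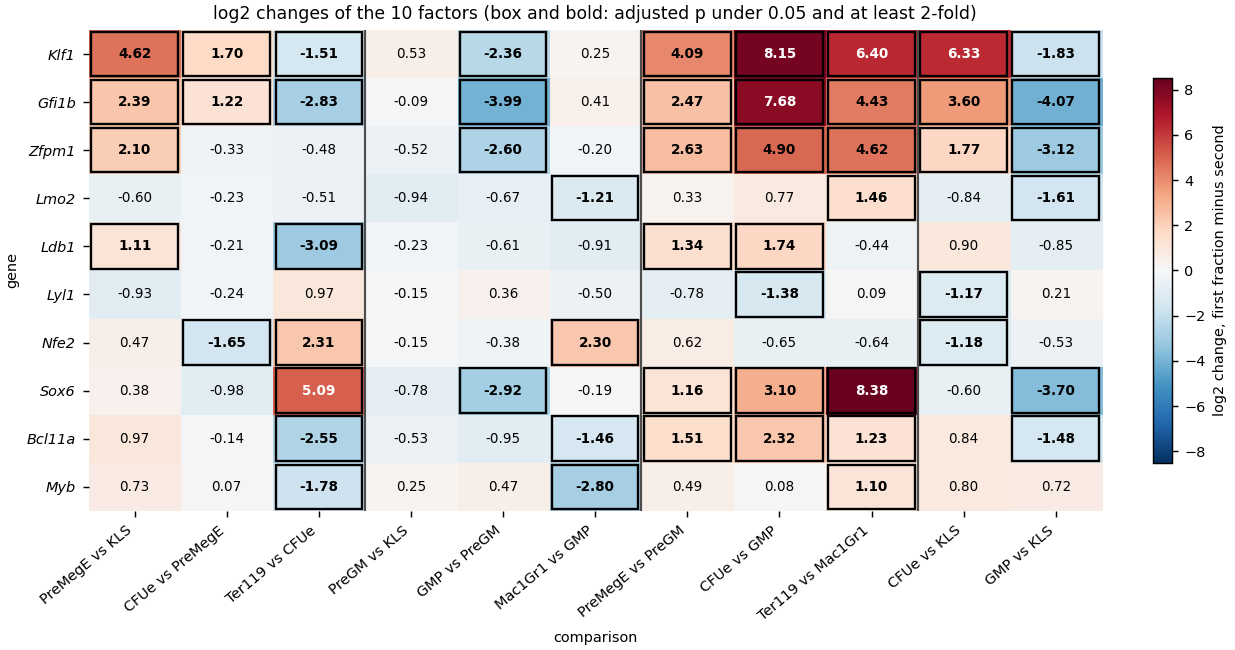
log2 change of each factor (rows) in the 6 steps, the 3 comparisons between lines and the 2 comparisons with KLS (columns), as the mean of the fraction named first minus that of the second. Boxes mark changes with an adjusted p under 0.05 and at least 2-fold, none of which lies in the column of PreGM against KLS. Among values called under the main or the spike-in scaling, the latter changes the sign of Klf1 and Gfi1b for Mac1Gr1 against GMP and of Myb for CFUe against GMP.

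The last step of each line moved the factors unequally. Sox6 and Nfe2 were the factors that rose from CFUe to Ter119, and of them Nfe2 alone also rose from GMP to Mac1Gr1, by nearly the same amount (difference between the lines 0.01 ± 0.31, adjusted p = 0.984). Bcl11a and Myb were called lower in both lines, and Ldb1, which fell in the erythroid line, changed by -0.91 in the myeloid line (adjusted p = 7.92e-05), called with the slide as a block (-1.04), without Mac1Gr1 replicate 2 (-1.01) and with spike-in scaling (-2.94). Spike-in scaling also called Klf1, Gfi1b, Zfpm1 and Lmo2 lower in both lines. Bcl11a fell further in the erythroid line (difference -1.09, adjusted p = 0.000326), a call lost with spike-in scaling (-0.44), and Myb further in the myeloid line (difference 1.02, adjusted p = 0.00132). The difference between the lines at this step had an adjusted p under 0.05 in 8 of the 10 factors, positive in 4 and negative in 4, where 26.0% of all probes were positive and 28.8% negative (4 and 2 with spike-in scaling, beside 9364 and 1977 of all probes). At the step before it, 5 of the 10 were positive and 1 negative, where 18.1% of probes were positive and 16.0% negative. Quantile scaling gave 4 and 3 there, and spike-in scaling 2 and 5, beside 359 and 19473 of all probes.

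**Figure D4:**
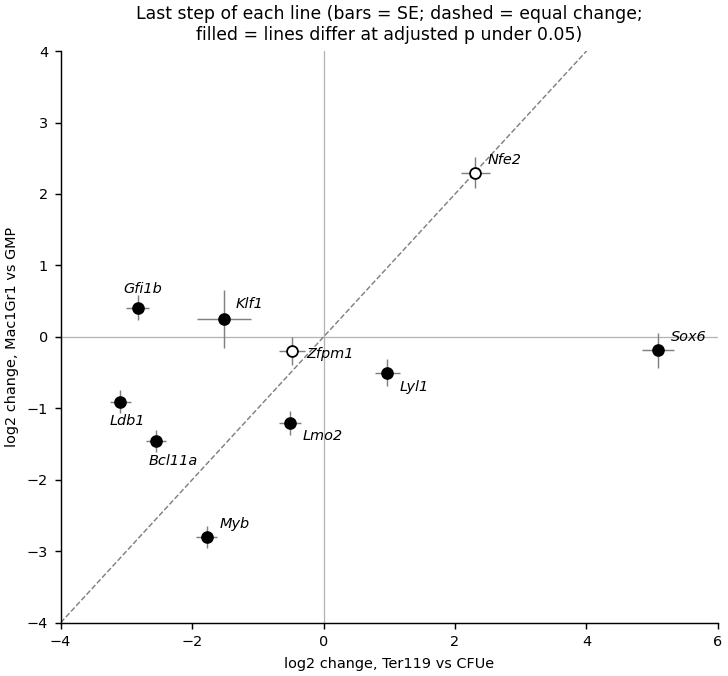
log2 change from CFUe to Ter119 (horizontal) against that from GMP to Mac1Gr1 (vertical) for the 10 factors, with SE bars, a dashed line at equal change and filled points where the lines differed at an adjusted p under 0.05. Nfe2 lies on the dashed line at 2.31 and 2.30, Sox6 lies far to the right at 5.09, and the vertical values of Klf1 (0.25) and Gfi1b (0.41) become -1.79 and -1.62 with spike-in scaling.

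Several paralogues of the factors were measured as well, 10 of 12 listed genes being tested. Gfi1, the relative of Gfi1b, ran opposite to it in the progenitors. The 3 GMP arrays averaged 3.42 ± 0.01 (SD, n = 3), those of KLS 2.03 ± 0.08 and those of PreMegE -2.56 ± 0.12. CFUe averaged -5.79 ± 1.97, with replicate 3 at -3.54 and 1 of the 3 arrays well above background. Gfi1 fell by 4.58 from KLS to PreMegE and rose by 2.19 from PreGM to GMP. It also stood at 1.1 in Ter119, a rise from CFUe. The size of that rise is not given, as only 1 of the 3 CFUe arrays was well above background. The Ter119 fraction held granulocytic transcripts, whose part in its Gfi1 level was not tested. Lmo4 likewise fell from PreMegE to CFUe (-1.11) and rose to Ter119 (3.14). Lmo1 was called in the same directions, but only 1 of its 3 CFUe arrays was well above background (-5.99, -6.08 and, in replicate 3, -3.81), so the sizes of these changes are not given. Both rose from KLS to PreGM (1.32 and 1.36), the step at which Lmo2 changed by -0.94. With spike-in scaling no paralogue was called higher at that step, beside 195 of all probes. Mybl2, a cell cycle regulator, rose by 1.42 from PreMegE to CFUe and fell by 3.36 from GMP to Mac1Gr1, while its -0.54 from CFUe to Ter119 was not called, unlike that of Myb. Among the 10 paralogues tested, 3 rose and 4 fell from PreMegE to CFUe, where 10% of all probes rose and 14.7% fell. Spike-in scaling gave none and 4 there, beside 846 and 7184 of all probes. From CFUe to Ter119, 6 rose and 1 fell, where 29.2% of all probes rose and 27.9% fell, with 4 and 3 under spike-in scaling (4053 and 16558 of all probes) and 4 and none under quantile scaling (main medians 0.55 and 1.86, or 1.64 with dim probes at their bound).

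**Figure D5:**
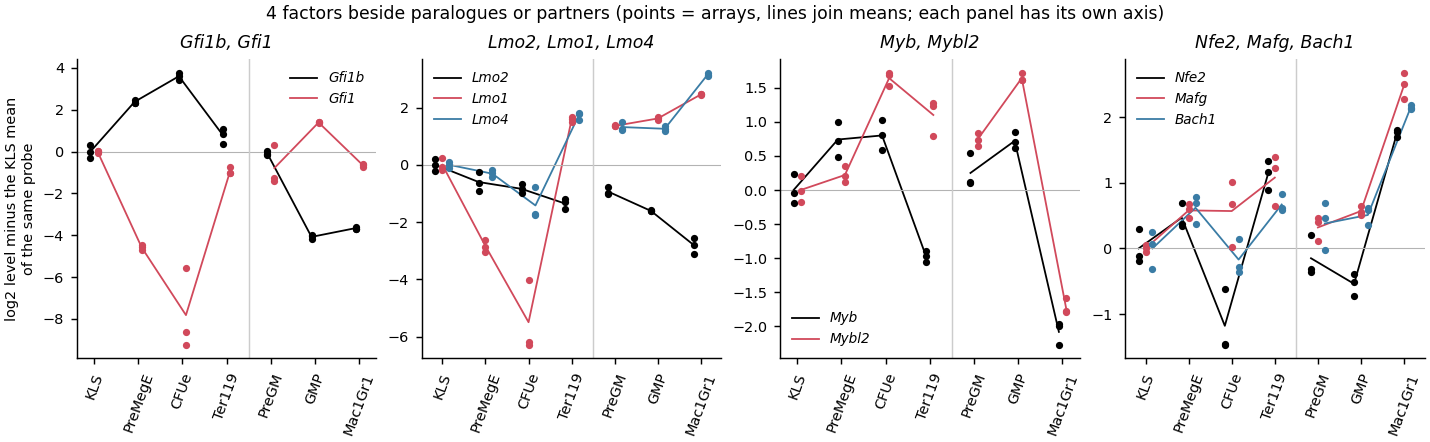
Level minus the KLS mean of the same probe (log2) for Gfi1b and Gfi1, for Lmo2, Lmo1 and Lmo4, for Myb and Mybl2, and for Nfe2 with Mafg and Bach1, as 3 points per fraction with lines through the means of the erythroid and the myeloid fractions. Gfi1b rises where Gfi1 falls from KLS to PreMegE (2.39 and -4.58), and Nfe2, Mafg and Bach1 all rise into Mac1Gr1 under the main scaling, Nfe2 by 0.27 with spike-in scaling.

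Genes that KLF1 is known to activate were taken as a list, of which 9 of 10 were measured. From KLS to PreMegE, where Klf1 itself rose 24.7-fold, 2 of the 9 rose (3.55% of all probes did), Icam4 by 3.17 and Ermap by 3.90. From PreMegE to CFUe, 6 of the 9 rose and none fell (median 2.11, all probes 0.12), where 10% of all probes rose, with 5 and 1 under spike-in scaling (846 and 7184 of all probes). They were led by the membrane skeleton gene Epb42 (at least 11.1-fold higher, not being well above background in PreMegE), Dmtn (2.81), Ermap (2.75) and the transferrin receptor Tfrc (2.67). In Ter119 against CFUe, where Klf1 fell, 6 of the 9 rose and none fell (median 4.04), where 29.2% of all probes rose, with 5 and 2 under spike-in scaling (4053 and 16558 of all probes). Alas2, the erythroid enzyme of haem synthesis, rose by 12.83 and Slc4a1, the band 3 anion exchanger, by 11.78, and both had shown no called change at the earlier erythroid steps. From GMP to Mac1Gr1, 5 of the 9 also rose and 2 fell (median 2.32, all probes 0.17). At that step 29.1% of all probes rose and 27.6% fell. The 5 included E2f2 (4.72) and Klf3 (3.34), and spike-in scaling gave 3 higher and 4 lower, beside 1895 and 20656 of all probes. The list was chosen from textbook knowledge with earlier results of these data known and describes these genes only.

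Genes with a similar profile to a factor were found by Pearson correlation over the 21 arrays among 14311 other genes, as a description. For Klf1 they were Epor, the erythropoietin receptor (r = 0.987), Ces2g (0.986) and Smim1, the Vel blood group gene (0.974). For Gfi1b they were Septin8 (0.979), Slc14a1, a urea transporter (0.966), and Zfpm1 (0.965), and for Zfpm1 they were Slc14a1 (0.992), Cd59b (0.980) and Samd14 (0.969). Sdsl was nearest to Ldb1 (0.981), Slc24a5 to Lmo2 (0.975), Itpr2 to Nfe2 (0.975), Pdzk1ip1 to Sox6 (0.970) and Tmtc4 to Myb (0.982). Lyl1 had the lowest best match, Gfi1 (0.932). Within the list, Ldb1 and Bcl11a were close (r = 0.92), and Lyl1 ran opposite to Klf1 (r = -0.70). The points share fractions and array scaling, and their number limits the precision.

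Arrays were spread over 9 slides, and 6 of the 11 comparisons had fractions that shared a slide. Within those slides, the called changes of the factors kept their direction. On slide 7, in Ter119 against CFUe, Klf1 changed by -0.99, Gfi1b by -2.32, Sox6 by 5.03 and Nfe2 by 2.61, and from PreGM to GMP on slide 2 Klf1 changed by -2.50 and Gfi1b by -3.86. PreMegE exceeded PreGM in Klf1 by 4.49 on slide 2 and by 3.64 on slide 3. Between GMP and KLS on slide 1, Klf1 differed by -3.43 where the pooled value was -1.83. That slide held KLS replicate 3, the KLS array highest in Klf1, and without it the pooled value was -1.26. Between CFUe and KLS on slide 8, Nfe2 differed by -0.51 where the pooled value was -1.18. That slide held CFUe replicate 3, the CFUe array highest in Nfe2, and without it the pooled value was -1.46.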

How the data were processed

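Total RNA of 21 samples was hybridised to 1-colour Agilent arrays, and the authors deposited 1 scanner file per array with intensity values that Agilent Feature Extraction 10.7.1.1 had corrected for background, per the file headers, without normalization between arrays. The series table that the authors deposited holds processed log2 values, which ranked probes as the scanner values did (rank correlation per array 0.9998 to 1.0) and had column medians of 6.154 to 6.23. How the authors scaled it is not given in the sources used here, so it served as an alternative, and the authors' normalization choice could move any level.

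Processed intensity was taken as log2 minus the 75th percentile of the 43379 spots that are no controls. Outlier spots (80 to 283 per array) were left out, spots of a probe were averaged, and no spot was saturated. Of 41174 probes, 64.8% carried an accession with a symbol in the RefSeq table, which came with GRCm38.p6. A probe was tested if every array of some fraction had it well above background, and the 29526 such probes were fitted with limma 3.58.1 in R 4.3.3, with a mean for each fraction over all 21 arrays, no block and 14 residual degrees of freedom, after a test on simulated data. Benjamini-Hochberg adjustment ran over all probes within a comparison, and tests were two-sided. Differences between lines were called at an adjusted p under 0.05 alone. A bound was used where a probe was not well above background on any array of a fraction. Array number limits precision, and the arrays had a single scan day.

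The text names the 10 factors, genes of the partner, corepressor, small MAF, paralogue, KLF1 target and marker lists, and genes among the 3 most similar to a factor, of which some results are not reported here. The factors and lists were chosen with earlier results of these data known. Of the listed genes, 8 (Tal1, Hdac1, Ahsp, Kit, Ly6g, Hbb-b1, Tubb1 and Igll1) had no matched probe, and Zfpm2 was dim throughout. Alternatives were quantile, spike-in (7 of 10 control RNAs) and series table values, normexp, a slide or replicate block, no dim filter, the compared fractions alone, the mean over probes of a gene, no minimum fold, a 2-fold minimum and leaving out each array. Replicate numbers did not pair samples across fractions (correlations of deviations -0.43 to 0.36, median 0). Samples on the same slide deviated together slightly (-0.05 to 0.40, median 0.11, against a median of 0 for other slides), and the slide block was an alternative. Counts of the gene lists under quantile and spike-in scaling were added after seeing the data.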

Additional observations from a re-analysis of the deposited data

Results flagged for a closer look

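The changes of 6 factors differed between the erythroid and the myeloid line at the step into CFUe or GMP, by limma's test of the difference itself. The erythroid change minus the myeloid one was 5.21 for Gfi1b (adjusted p = 2.36e-10), 4.06 for Klf1 (adjusted p = 4.40e-05), 2.27 for Zfpm1 (adjusted p = 9.91e-06), 1.94 for Sox6 (adjusted p = 0.000291), 0.81 for Bcl11a (adjusted p = 0.00647) and -1.27 for Nfe2 (adjusted p = 0.00403). With spike-in scaling the differences of Zfpm1 (0.74), Sox6 (0.41) and Bcl11a (-0.72, turned in sign) were not past the threshold, nor was that of Bcl11a with quantile scaling (0.42) or in the series table (0.46). The Sox6 difference was also not called with the mean of its probes (1.16), its 3 other probes gave 0.3, 0.7 and 1.71 without passing, and Sox6 was well above background on 1 of the 3 GMP arrays.

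At the step into Ter119 or Mac1Gr1 the lines differed in 8 factors. The difference was 5.28 for Sox6 (adjusted p = 1.76e-09), 1.46 for Lyl1 (adjusted p = 0.000177), 1.02 for Myb (adjusted p = 0.00132) and 0.69 for Lmo2 (adjusted p = 0.023). It was -3.25 for Gfi1b (adjusted p = 9.25e-09), -2.19 for Ldb1 (adjusted p = 5.64e-07), -1.76 for Klf1 (adjusted p = 0.0175) and -1.09 for Bcl11a (adjusted p = 0.000326). The Klf1 difference was not past the threshold with quantile scaling (-0.94), in the series table (-1.01) or with spike-in scaling (-1.11), nor that of Bcl11a with spike-in scaling (-0.44). The Lmo2 difference was not past the threshold without CFUe replicate 2 (0.62), Ter119 replicate 2 (0.61) or Mac1Gr1 replicate 3 (0.55).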

How the results depend on the processing

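Of 2200 values of the 10 factors under alternatives (13 comparisons), 2065 kept their call or stayed uncalled, 35 were no longer called and 94 were newly called. The other 6 turned direction with a call in the main setting or in the alternative. Turns of sign with a call in neither are among the 2065. All 6 turned with spike-in scaling, under which the median of all probes ran from -1.86 (Mac1Gr1 against GMP) to 0.99 (GMP against PreGM): Klf1 (-1.79) and Gfi1b (-1.62) in Mac1Gr1 against GMP, Myb (-1.30) in CFUe against GMP, and the lineage differences at the second step of Lmo2 (-1.09), Ldb1 (-1.12) and Bcl11a (-0.72). The cause was not tested. That scaling called 9 factors lower in Mac1Gr1 against GMP and 4 in PreGM against KLS, where it called 20656 and 5390 of all probes lower. In the latter, quantile scaling and the series table each called 1, and leaving out 1 array gave 0 to 2, with 2 without KLS replicate 3 and 2 without PreGM replicate 3. With no minimum fold, 8 factors were called in PreMegE against KLS, 3 in PreGM against KLS, 8 in GMP against PreGM, 7 in Mac1Gr1 against GMP and 10 in CFUe against KLS. Over all probes, counts moved by more than 1.5 times under normexp in 9 comparisons (1207 to 7171 probes called), with no minimum fold in 9 (7512 to 19464), under spike-in scaling in 4 (5585 to 19832), where the main counts were 2545 to 12373, and in the second-step difference with a 2-fold minimum (5966 against 10051). Same-numbered samples did not deviate together, and the fit with the replicate block changed none of the 130 calls (4 factors in PreMegE against KLS with the block as without it). Probes near background limit Sox6 in GMP and Mac1Gr1.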
